A study of Mus musculus with 8 samples.

Results

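The motile cilia and ependymal genes described here are 79 of the 18983 genes in a count table from mouse central amygdala. They were chosen by gene symbol, without a threshold on any level, though with earlier results of these data known. The choice took the families Dnah, Dnaaf, Dnai or Dnaic, Rsph, Tekt, Cfap and Drc, plus Foxj1, Ccdc153, Tmem212, Rarres2, Dynlrb2, Mia, Ak7 and Rsph4a. After a filter on low counts 72 of the 79 were tested, among 15186 tested genes. The 7 left untested by low counts were Cfap58, Cfap73, Cfap97d1, Dnaaf6b, Rsph6a, Rsph14 and Tekt3. The tissue came from 129SV mice aged 7 months, and the question of the study was what 20 weeks of high fat diet (HFD) changes relative to normal chow. Each diet had 4 libraries, named HFD 1, 2, 5 and 8 and chow 1, 2, 5 and 8 after the numbers in their titles. Both groups share strain, age and dissection. The labels do not tie libraries to separate animals, and p-values therefore cover only the spread between these libraries, which may be technical.

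A motile cilium is built on a ring of doublet microtubules whose sliding is driven by outer and inner dynein arms. Radial spokes and the nexin-dynein regulatory complex govern those arms, tektins form filaments inside the doublets, and cytoplasmic assembly factors build the arms before transport. In brain, the ependymal cells that line the ventricles carry tufts of motile cilia that move cerebrospinal fluid. Choroid plexus epithelium, which secretes that fluid, carries cilia as well. Foxj1 is the transcription factor that switches on the motile cilium programme, and the RFX factors act with it through a DNA element called the X-box.

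Promoter sequence is shown because these genes are known to share RFX control. The RefSeq table (GRCm38.p6, the build named mm10 by the submitters' processing notes) held windows of 250 bases before to 50 after the start for 66 of the 79 genes, of which 60 were tested. The X-box arm GTTGCC, searched on both strands, was in 41.7% of those 60 genes and in 15.1% of the 12060 tested genes with a window. The X-box palindrome, GTTNCC and its reverse complement GGNAAC with 2 bases between, was in 3.33% of the 60 and 0.638% of the 12060. Facing arms with another spacing or with other letters were not searched, so these shares need not count every X-box. All 3 windows of these genes that held the palindrome also held the arm. The forkhead motif GTAAACA was in 6.67% of the 60 and 3.14% of the 12060. In the sequences below, the 200 bases before the start are printed 5′ to 3′ on the strand of the gene, and capitals mark the arm, its reverse complement or the palindrome. Dynlrb2, Dnaic2, Ccdc153 and Drc7 are shown as examples of members whose levels enter the results that follow. They do not represent the share of members with the arm. Cfap126, Dnaic1, Tmem212, Mia and Cfap52 had windows without the arm, and Foxj1 and Rsph1 had no window. Cfap298 is shown for a palindrome and a second pair of facing arms.
Dynlrb2, chr8:116504815-116505014, plus strand: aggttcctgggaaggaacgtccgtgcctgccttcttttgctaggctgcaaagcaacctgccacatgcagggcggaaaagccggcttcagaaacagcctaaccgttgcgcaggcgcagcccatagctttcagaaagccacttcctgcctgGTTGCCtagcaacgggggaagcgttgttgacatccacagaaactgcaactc
Dnaic2, chr11:114727219-114727418, plus strand: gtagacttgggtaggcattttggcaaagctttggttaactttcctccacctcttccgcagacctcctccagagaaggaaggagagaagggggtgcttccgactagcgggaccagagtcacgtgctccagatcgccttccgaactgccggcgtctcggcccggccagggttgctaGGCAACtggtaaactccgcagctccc
Ccdc153, chr9:44240477-44240676, plus strand: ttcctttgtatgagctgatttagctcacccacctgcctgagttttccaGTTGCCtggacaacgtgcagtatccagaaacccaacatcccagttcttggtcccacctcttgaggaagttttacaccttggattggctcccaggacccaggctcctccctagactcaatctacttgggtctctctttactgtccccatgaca
Drc7, chr8:95054903-95055102, plus strand: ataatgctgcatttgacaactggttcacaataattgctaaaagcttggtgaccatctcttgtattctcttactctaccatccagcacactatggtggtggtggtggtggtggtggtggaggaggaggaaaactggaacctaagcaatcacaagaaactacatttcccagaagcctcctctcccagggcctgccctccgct
Cfap298, chr16:90934850-90935049, minus strand: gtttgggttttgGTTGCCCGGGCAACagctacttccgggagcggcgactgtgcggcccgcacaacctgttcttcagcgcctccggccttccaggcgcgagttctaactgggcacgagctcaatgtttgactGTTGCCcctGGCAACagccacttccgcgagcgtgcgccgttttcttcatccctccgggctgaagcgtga
A match is a run of letters and not a measured binding site. In the 200 bases of Drc7 none of the searched letters occurred. A link between matches and levels was not tested.

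No member passed the diet comparison. The edgeR quasi-likelihood test called 0 of 72 members at an adjusted p under 0.05, where 0% of all tested genes were called, and the smallest adjusted p of any gene was 0.753. Members with a log2 fold (HFD over chow) below 0 numbered 52 of 72, or 72.2%, beside 51.8% of all tested genes. Their median log2 fold was -0.26, and that of all tested genes was -0.01. At an unadjusted p under 0.05 there were 2 members, or 2.78%, beside 4.27% of all genes, with 0 on the higher side and 2 on the lower side beside 1.65% and 2.63%. Both were outer arm dynein intermediate chains, Dnaic2 and Dnaic1. DESeq2 also called 0 genes, with 4 members at an unadjusted p under 0.05, all lower. In limma-voom the count called was 0, with 0 members at an unadjusted p under 0.05. Separate HFD and chow ranges were found for 0 of 72 members, beside 1.36% of all tested genes, 0.645% with HFD higher and 0.718% with HFD lower. A share this small does not set 72 members apart from other genes. Without chow 2 the call rate over all genes was 0.601% higher and 0.157% lower, and 0 of 72 members were called.

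The members varied most through 1 library. Chow 1 was the highest of the 8 libraries for 45 of 72 members, or 62.5%, beside 33.2% of all tested genes. For 28 members, or 38.9%, it was also at least 2 times the next library, beside 3.09% of all genes. For 34, or 47.2%, it was at least 2 times the median of the other 7, beside 8.42% of all genes. Summed over these 28 genes, which were chosen on these values and are therefore described without a test, the level was 97.2, 145, 83.6 and 135 CPM in the HFD libraries. In the chow libraries the sum was 706, 112, 105 and 133 CPM, so 3 chow libraries lay inside the HFD range and chow 1 far above it. The other 44 tested members summed to 519, 623, 567 and 571 CPM with HFD, against 572, 589, 463 and 562 CPM with chow. Without chow 1 the diet comparison had 43 of 73 tested members with a positive and 30 with a negative fold, a median of 0.07, and 0 called. The negative median fold of the members therefore turned positive when that library was left out. In bulk tissue, more cells of a type and more RNA per cell cannot be told apart.

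**Figure D1:**
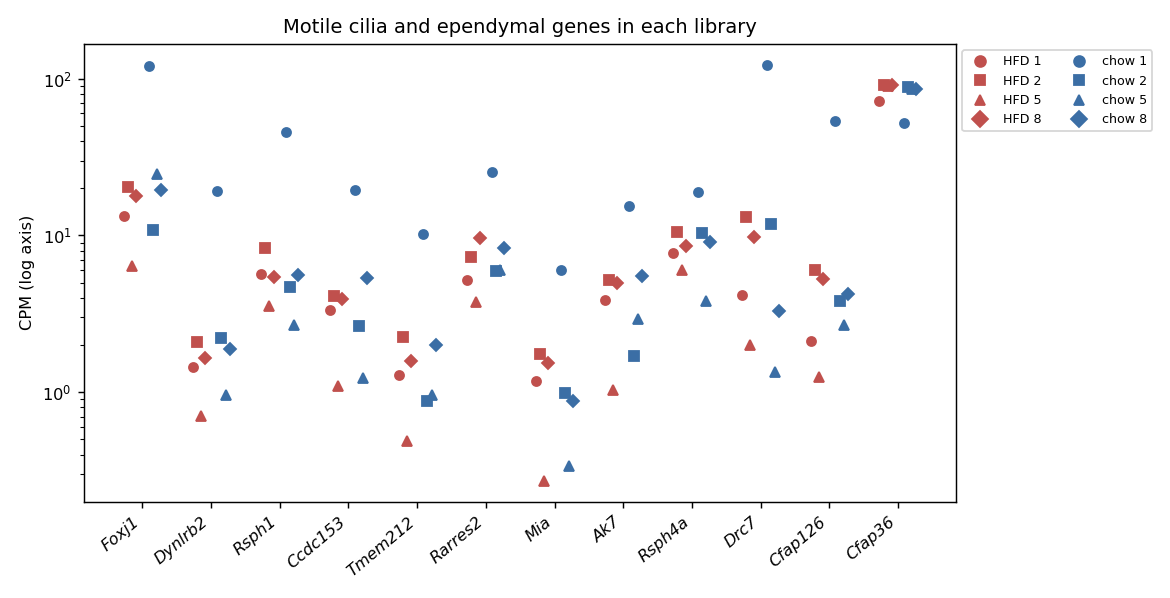
CPM on a log axis (vertical) of 12 members (horizontal), with the 4 HFD libraries as red points left of the 4 chow libraries as blue points, and the marker shape giving the title number. For Foxj1 the chow 1 circle stands at 121 CPM, above HFD libraries at 6.42 to 20.5 CPM, whereas for Cfap36 chow 1 is the lowest library at 51.9 CPM.

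Library totals ran from 17451111 to 19562368 counts, with chow 1 the deepest by a small margin, and CPM values are scaled for depth. Over all genes the biological coefficient of variation was 29.3%, and log2 folds had a median SE of 0.21. The central amygdala markers Prkcd, Sst, Crh, Tac2 and Nts were detected in every library, with Prkcd at 10.97 to 25.1 CPM with HFD and 20.1 to 273 CPM with chow. The ependymal markers Foxj1, Dynlrb2 and Rsph1 were above 0 in every library too, at levels given next.

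Foxj1 (chromosome 11, 116330704 to 116335499, GRCm38.p6) was at 13.3, 20.5, 6.42 and 17.8 CPM in HFD 1, 2, 5 and 8, against 121, 10.8, 24.5 and 19.4 CPM in chow 1, 2, 5 and 8. Chow 1 was far above every other library, chow 5 was the next highest, and HFD 5 was the lowest. Its log2 fold was -1.60 ± 0.73 (SE), with adjusted p = 0.753 by edgeR, and -0.34 ± 0.41 without chow 1. Dynlrb2 (chromosome 8, 116505015 to 116515915), a roadblock-type light chain of dynein, was at 1.46, 2.09, 0.707 and 1.65 CPM with HFD, against 19.1, 2.21, 0.955 and 1.88 CPM with chow. The diets overlapped apart from chow 1, and the log2 fold of -2.03 ± 0.91 became -0.19 ± 0.42 without it. Rsph1 (chromosome 17, 31255019 to 31277296), a radial spoke head protein, was at 5.71, 8.36, 3.54 and 5.43 CPM with HFD, against 45.7, 4.69, 2.70 and 5.58 CPM with chow. Here the fold turned from -1.35 ± 0.84 to 0.41 ± 0.34 when chow 1 was left out. The cytoplasmic paralogue of Dynlrb2, Dynlrb1, ran at 158, 191, 172 and 203 CPM with HFD, against 255, 171, 214 and 183 CPM with chow. Chow 1 was again the highest library for Dynlrb1, with a log2 fold of -0.19 ± 0.16 over the diets and -0.075 without chow 1.

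The other genes named for ependymal cells behaved like these markers in chow 1. Ccdc153, a coiled-coil gene, was at 3.36, 4.13, 1.09 and 3.95 CPM with HFD, against 19.5, 2.65, 1.24 and 5.36 CPM with chow. Tmem212, a membrane protein gene, was at 1.29, 2.26, 0.490 and 1.59 CPM with HFD, against 10.2, 0.883, 0.955 and 1.99 CPM with chow. Ak7, an adenylate kinase of motile cilia, was at 3.86, 5.17, 1.03 and 4.94 CPM with HFD, against 15.3, 1.71, 2.92 and 5.53 CPM with chow. In each of the 3, HFD 5 was the lowest HFD library and chow 1 was the highest library of all. Their log2 folds of -1.20 ± 0.79, -1.32 ± 0.83 and -0.76 ± 0.70 became 0.02, 0.13 and 0.14 without chow 1. The other 2 genes of the class code for secreted proteins. Rarres2, the chemerin gene, was at 5.21, 7.32, 3.75 and 9.66 CPM with HFD, against 25.2, 5.96, 6.01 and 8.35 CPM with chow. Its exons share 33.6% of their bases with Lrrc61 on the opposite strand, and the strand setting of the counting is not given in the sources used here. Mia was at 1.18, 1.76, 0.272 and 1.54 CPM with HFD, against 6.05, 0.994, 0.337 and 0.885 CPM with chow. For both, chow 1 was again the highest library, and the folds of -0.81 ± 0.52 and -0.80 ± 0.87 became -0.07 and 0.67 without it.

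Within the nexin-dynein regulatory complex, which links neighbouring doublets, the 3 genes differed from one another. Drc7 (chromosome 8, 95055103 to 95078141) was at 4.20, 13.1, 2.01 and 9.71 CPM with HFD, against 122, 11.8, 1.35 and 3.32 CPM with chow. The level in chow 1 was 29.2 times the median of the other 7 libraries, the highest such ratio of any member. The log2 fold of Drc7 was -2.26 ± 1.26, the lowest of any member, and 0.40 ± 0.81 without chow 1. Drc3 was at 9.52, 11.4, 9.90 and 10.4 CPM with HFD, against 23.1, 10.8, 7.19 and 9.12 CPM with chow. Drc1 was at 11.8, 17.3, 15.0 and 12.3 CPM with HFD, against 15.7, 14.1, 7.02 and 13.1 CPM with chow. For Drc1 the highest library was HFD 2 and chow 1 stood inside the HFD range, at 1.2 times the median of the others. Drc3 and Drc1 had log2 folds of -0.29 ± 0.34 and 0.18 ± 0.25. Without chow 1 these were 0.18 and 0.30, and without chow 5 they were -0.48 and -0.021.

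Of the 5 tested radial spoke genes, Rsph1 was the only one at least 2 times the next library in chow 1. Rsph4a, another spoke head gene, was at 7.72, 10.5, 6.04 and 8.62 CPM with HFD, against 18.8, 10.4, 3.82 and 9.12 CPM with chow. Rsph9 was at 14.6, 16.5, 17.7 and 14.3 CPM with HFD, against 19.8, 17.5, 8.48 and 12.9 CPM with chow. For both, chow 1 was the highest and chow 5 the lowest library, over a narrower range than in Rsph1. The near-identical Rsph3a and Rsph3b, whose reads the counting may divide between them, had log2 folds of 0.09 ± 0.20 and 0.04 ± 0.16. Rsph4a and Rsph9 had -0.36 ± 0.42 and 0.10 ± 0.25. Without chow 5 the 5 folds were negative, with a median of -0.09, and without chow 1 all were positive, with a median of 0.24.

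The tektins had log2 folds below 0 in 4 of 4 tested genes, with a median of -0.86, and 2 of 4 without chow 1, with a median of 0.03. Tekt1 was at 2.69, 5.67, 3.75 and 4.28 CPM with HFD, against 26.8, 4.20, 1.29 and 2.82 CPM with chow. Tekt4 was at 1.06, 1.43, 1.47 and 1.76 CPM with HFD, against 6.83, 0.994, 0.562 and 2.27 CPM with chow. Both were highest in chow 1 and lowest in chow 5. Tekt5 differed in its lower libraries, with 5.54, 8.36, 17.1 and 12.4 CPM with HFD, against 35.7, 9.61, 16.7 and 15.3 CPM with chow. Its lowest library was HFD 1, and HFD 5 and chow 5 were next below chow 1. The log2 folds were -1.10 ± 0.83 for Tekt1, -0.90 ± 0.68 for Tekt4 and -0.83 ± 0.45 for Tekt5, and without chow 1 they were 0.56, 0.16 and -0.36.

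The intermediate chains, which hold the outer dynein arm together and bind it to the doublet, had the smallest p of the members. Dnaic2 (chromosome 11, 114721341 to 114757889) was at 4.65, 5.12, 3.16 and 6.09 CPM with HFD, against 21.6, 4.69, 7.81 and 6.41 CPM with chow. Dnaic1 (chromosome 4, 41569647 to 41638158) was at 3.81, 4.13, 3.81 and 4.995 CPM with HFD, against 17.5, 4.03, 6.12 and 5.75 CPM with chow. In both genes chow 1, chow 5 and chow 8 stood above all HFD libraries, and chow 2 stood among them. Their log2 folds were -1.09 ± 0.47 and -1.0 ± 0.44, each with adjusted p = 0.753 by edgeR, and -0.41 ± 0.26 and -0.35 ± 0.20 without chow 1. These 2 genes therefore kept a smaller negative fold without chow 1, and did not pass the test with or without it.

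**Figure D2:**
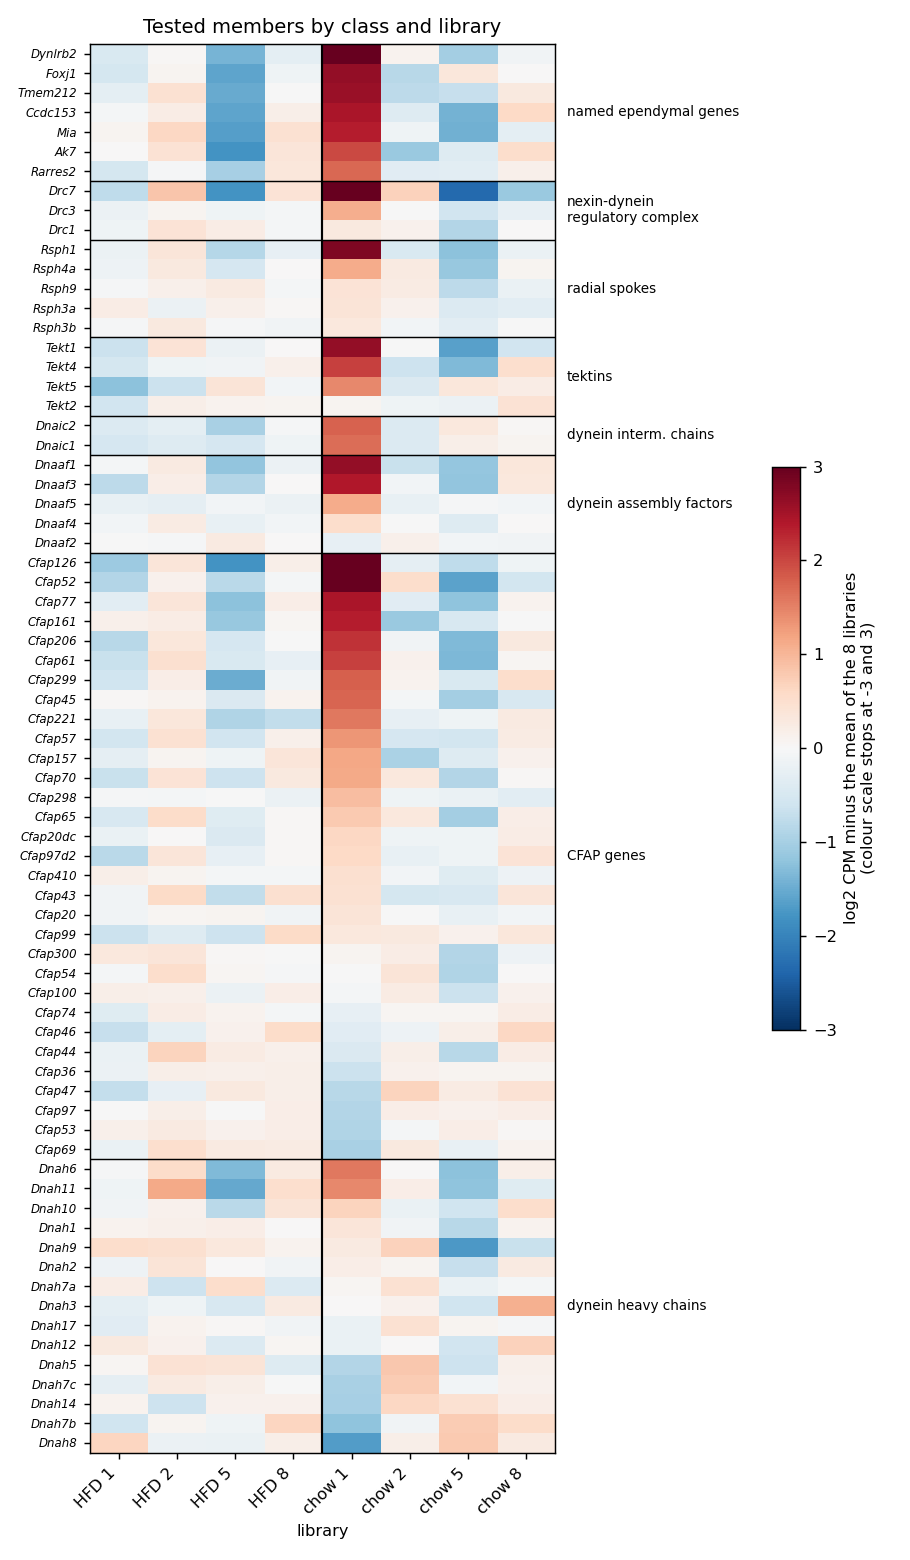
Each row is 1 of the 72 tested members, grouped by class, and each column a library, HFD left of chow. Colour gives log2 CPM minus the mean of the 8 libraries of that gene, red above and blue below. The chow 1 column is red through the ependymal and intermediate chain rows and the tektin rows other than Tekt2, which is near the mean there. It has blue rows at the foot of the CFAP and dynein heavy chain classes.

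The dynein heavy chains, the motor subunits themselves, went both ways in chow 1. That library was the lowest for 5 of the 15 tested genes and the highest for 4. Dnah6 alone was at least 2 times the next library there. Levels in chow 1 ran from 0.156 times the median of the other 7 libraries, for Dnah8, to 3.10 times, for Dnah11, with a median of 0.972. The Dnah8 value rests on few reads, with 2 counts in chow 1 and 9 to 19 in the other libraries. Dnah1, an inner arm motor, was at 17.4, 17.9, 18.6 and 16.1 CPM with HFD, against 20.96, 15.02, 8.98 and 17.4 CPM with chow. Dnah9, an outer arm motor, was at 14.2, 13.7, 12.3 and 10.6 CPM with HFD, against 11.95, 16.01, 2.92 and 6.19 CPM with chow. For both, the lowest library was chow 5 and the diet ranges overlapped, with log2 folds of 0.17 ± 0.23 and 0.46 ± 0.44. With single libraries left out, the fold of Dnah1 ran from -0.022 (without chow 5) to 0.34 (without chow 1) and that of Dnah9 from 0.16 (without chow 5) to 0.86 (without chow 2). Dnah7b, an inner arm motor, ran the other way in chow 1 and chow 5. It was at 5.71, 9.24, 8.05 and 13.8 CPM with HFD, against 3.73, 8.12, 14.9 and 12.9 CPM with chow, with a log2 fold of -0.11 ± 0.42 that was -0.39 without chow 1 and 0.16 without chow 5. Reads of Dnah7b may be divided with its near-identical copies Dnah7a and Dnah7c. Dnah6, also an inner arm motor, was at 3.86, 5.83, 1.52 and 4.83 CPM with HFD, against 12.2, 4.03, 1.63 and 4.48 CPM with chow.

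The dynein assembly factors, which fold and join the arms in the cytoplasm, were divided. Dnaaf1, Dnaaf3 and Dnaaf5 were at least 2 times the next library in chow 1, while Dnaaf2 and Dnaaf4 were not. Dnaaf5 was at 10.7, 10.2, 11.7 and 11.03 CPM with HFD, against 26.8, 10.7, 12.1 and 11.7 CPM with chow. Outside chow 1 the libraries of Dnaaf5 lay close together, and its log2 fold of -0.49 ± 0.29 became -0.077 without chow 1. Dnaaf2 was at 35.8, 35.0, 43.3 and 36.4 CPM with HFD, against 30.4, 40.2, 33.9 and 33.5 CPM with chow. Chow 1 was the lowest library for Dnaaf2, HFD 5 the highest, and the log2 fold of 0.12 ± 0.13 ran from 0.052 (without HFD 5) to 0.21 (without chow 2). Dnaaf4, the least abundant of these 3 in CPM, had a log2 fold of -0.11 ± 0.25, which was 0.080 without chow 1 and -0.23 without chow 5.

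The CFAP genes, the broadest class with 31 tested, covered both ends of the pattern. In 9 of the 31, chow 1 was at least 2 times the next library. Cfap126 (chromosome 1, 171113912 to 171126956), known as Flattop and needed for docking of basal bodies, was at 2.13, 5.998, 1.25 and 5.27 CPM with HFD, against 53.2, 3.81, 2.70 and 4.26 CPM with chow. Cfap52, a protein of the doublet interior, was at 1.29, 2.70, 1.36 and 2.36 CPM with HFD, against 24.6, 3.59, 0.730 and 1.66 CPM with chow. Cfap299 was lower throughout, at 0.392, 0.770, 0.163 and 0.604 CPM with HFD, against 2.54, 0.718, 0.449 and 0.995 CPM with chow. In all 3 the diets overlapped apart from chow 1. The log2 folds of -2.13 ± 1.03, -1.99 ± 0.97 and -1.28 ± 0.63 became 0.02, -0.05 and -0.58 without it.

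At the other end, Cfap36 (chromosome 11, 29218918 to 29247317) was at 71.8, 91.3, 89.6 and 91.2 CPM with HFD, against 51.9, 88.8, 85.9 and 85.2 CPM with chow. Cfap97 was at 37.3, 42.5, 37.1 and 42.9 CPM with HFD, against 20.2, 42.7, 41.0 and 43.1 CPM with chow. In both genes chow 1 was the lowest library, and chow 2, 5 and 8 lay within the HFD range or close to it. Cfap20, a protein at the junction of the doublet, was at 35.8, 39.8, 40.3 and 35.7 CPM with HFD, against 49.7, 37.7, 32.7 and 36.2 CPM with chow. Chow 1 was the highest library for Cfap20, at 1.235 times the next. The log2 folds of the 3 were 0.14 ± 0.18, 0.12 ± 0.23 and -0.04 ± 0.15, and without chow 1 they turned to -0.016, -0.088 and 0.087. In the per-length values of the authors' deposited table, Cfap36 had the highest mean TPM of the members, 135 with HFD and 120 with chow. Foxj1 had 14.4 with HFD and 38.7 with chow in the same table. In all, chow 1 was the lowest library for 11 members, or 15.3%, beside 34% of all tested genes. Those 11 were Cfap36, Cfap47, Cfap53, Cfap69, Cfap97, Dnaaf2, Dnah5, Dnah7b, Dnah7c, Dnah8 and Dnah14.

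**Figure D3:**
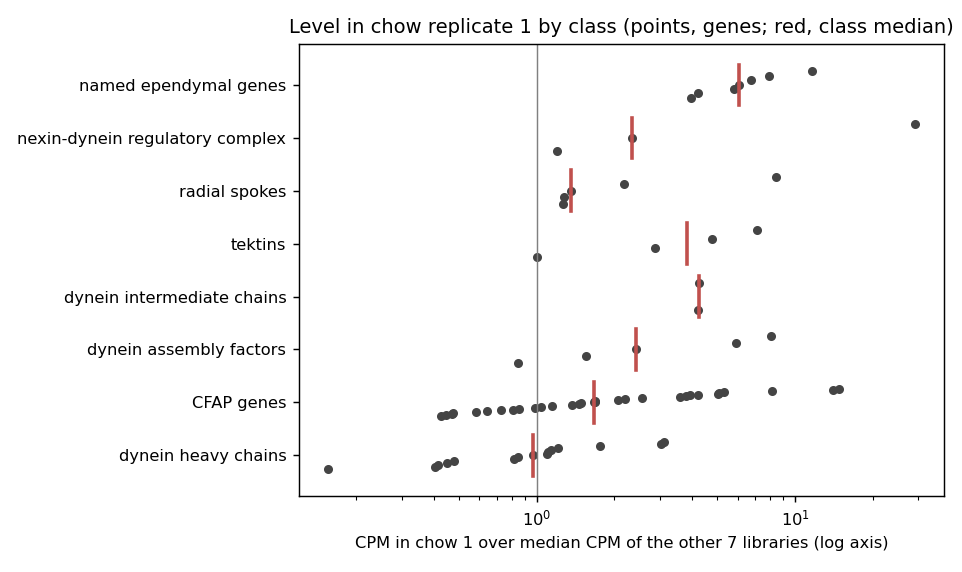
Each point is a tested member, placed by its CPM in chow 1 over the median CPM of the other 7 libraries (log axis), with classes on the vertical axis and the class median as a red bar. Medians run from 6.09 for the named ependymal genes to 0.972 for the dynein heavy chains, and the CFAP genes spread from 0.427 to 14.9.

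By class, the level in chow 1 over the median of the other 7 libraries had a median of 6.09 in the 7 named ependymal genes, with a range of 3.97 to 11.6. It was 4.24 in the 2 intermediate chains and 3.82 in the 4 tektins, where it ran from 1.00 for Tekt2 to 7.14 for Tekt1. Assembly factors had 2.43, the regulatory complex 2.34, CFAP genes 1.67 and radial spokes 1.36. The median log2 diet fold of the named ependymal genes was -1.20 with 8 libraries and 0.02 without chow 1. For the heavy chains these medians were -0.07 and -0.09.

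**Figure D4:**
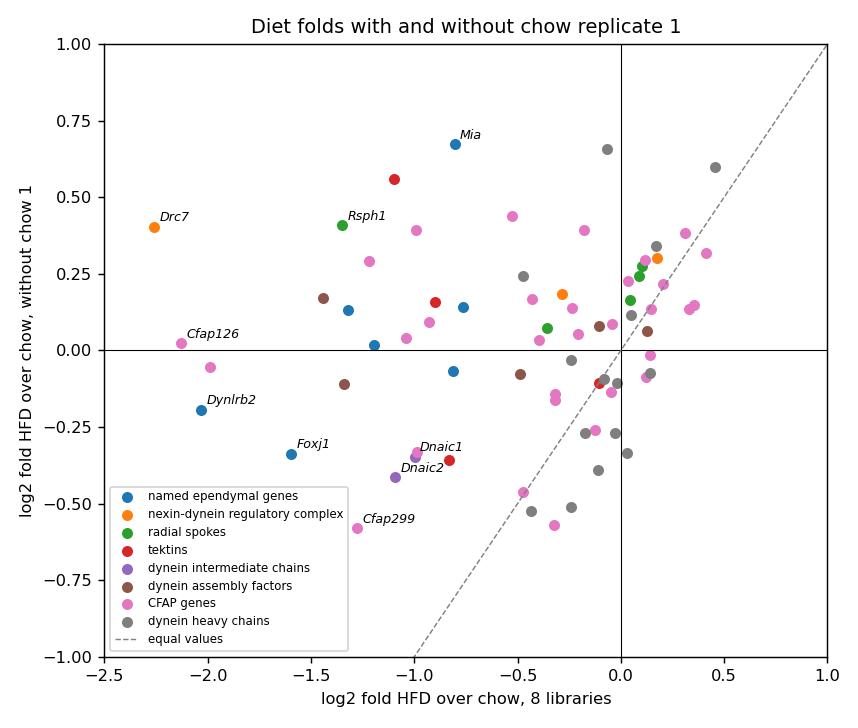
Each point is a tested member, with its log2 fold of HFD over chow from 8 libraries (horizontal) against the fold without chow 1 (vertical), coloured by class. The dashed line marks equal values. Drc7, Cfap126 and Dynlrb2 lie near -2 on the horizontal axis and at 0.40, 0.02 and -0.19 on the vertical axis, and no member passed the test on either axis.

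With chow 1 set aside, many members were highest or lowest in the same libraries, though not all varied alike. HFD 2 was then the highest library for 30 of 72 members, or 41.7%, beside 8.44% of all tested genes. Chow 5 was the lowest for 31, or 43.1%, beside 20.0% of all genes, and HFD 5 for 22, or 30.6%, beside 10.5%. Among the 28 members highest in chow 1 by the margin above, chow 5 was below the median of the other 6 libraries for 22 and above it for 6. The 6 were Foxj1, Dnaic1, Dnaic2, Tekt5, Dnaaf5 and Cfap221, and the ratio was 1.58 for Foxj1, against 0.194 for Drc7. Foxj1 thus had its next highest level after chow 1 in the library where Drc7 was at its lowest.

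Other genes of motile cilia outside the symbol rule were taken from a list of 54, of which 53 are in the table and 50 were tested. Of the 50, 0 were called, 6 had a positive and 44 a negative fold, and the median was -0.41. In 28 of the 50, chow 1 was at least 2 times the next library, and without chow 1 the count was 34 positive and 16 negative, with a median of 0.11. Dnajb13, a chaperone of the radial spoke, was at 0.336, 0.770, 0.381 and 0.714 CPM with HFD, against 8.28, 0.552, 0.562 and 0.663 CPM with chow. Tppp3, a tubulin-binding protein gene also used by other cells, was at 40.5, 54.5, 41.8 and 66.5 CPM with HFD, against 119, 39.7, 89.8 and 89.1 CPM with chow. For Tppp3 chow 1, chow 5 and chow 8 were above all HFD libraries and chow 2 below them, and the log2 fold was -0.73 ± 0.31. Ccdc39, which sets the spacing of inner arms, ran opposite to most of the list. It was at 18.4, 29.1, 27.7 and 23.6 CPM with HFD, against 4.24, 28.9, 23.4 and 26.5 CPM with chow, so that chow 1 was the lowest library by far. Dnal1, an outer arm light chain, was also lowest in chow 1, at 159, 141, 139 and 120 CPM with HFD, against 76.3, 155, 89.1 and 106 CPM with chow.

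The transcription factors and centriole genes that start the programme gave 12 tested genes, 5 with a positive and 7 with a negative fold and 0 called. Trp73, which acts upstream of Foxj1, was at 3.25, 4.62, 4.90 and 5.54 CPM with HFD, against 17.1, 3.97, 3.20 and 5.75 CPM with chow. Deup1, the scaffold of the structure that multiplies basal bodies, was at 0.616, 0.880, 0.871 and 0.714 CPM with HFD, against 3.57, 1.10, 1.24 and 0.885 CPM with chow. Its HFD values were all below its chow values with a narrow gap at the nearest pair, as in 0.718% of all tested genes. Its log2 fold was -1.14 ± 0.48 with adjusted p = 0.753 by edgeR, and -0.48 without chow 1. Rfx3, the RFX factor with the highest CPM of the list, went the other way. It was at 65.5, 70.6, 107 and 49.3 CPM with HFD, against 17.5, 94.5, 32.9 and 45.8 CPM with chow, lowest in chow 1. Genes of the primary cilium and intraflagellar transport are used by nonmotile cilia too. Of these, 0 of 34 were at least 2 times the next library in chow 1, beside 3.09% of all tested genes. They summed to 1689, 1644, 1648 and 1566 CPM with HFD, against 1370, 1669, 1446 and 1503 CPM with chow. The sum was lowest in chow 1, yet chow 1 was the highest library for 12 of the 34, beside 33.2% of all tested genes.

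Choroid plexus genes moved with the same library. Of 21 tested genes on that list, 20 were highest in chow 1, 20 had a negative and 1 a positive diet fold, and 0 were called. Without chow 1 all 21 folds were positive, with a median of 0.73 beside -0.72 with 8 libraries. The list summed to 908, 4547, 566 and 2196 CPM with HFD, against 9641, 2435, 725 and 769 CPM with chow, and none of the defining markers Ttr, Clic6, Kl, Folr1 and Otx2 was at 0. The part of choroid plexus genes in the levels of the cilia members was not tested. Ttr, the transthyretin gene, was at 397, 2915, 190 and 1194 CPM with HFD, against 5794, 1349, 71.5 and 201 CPM with chow. Clic6, a chloride channel gene, was at 8.62, 51.3, 3.59 and 32.0 CPM with HFD, against 359, 29.0, 7.64 and 18.7 CPM with chow. HFD 2 came next after chow 1 in both, while the ratio of chow 1 to HFD 2 was 1.99 for Ttr and 6.99 for Clic6. Over the choroid plexus list that ratio ran from 0.508 to 9.53, with a median of 2.30. In the 28 cilia members it is at least 2 by their choice and reached 9.35, and in the other 44 tested members its median was 0.932.

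Lists for neurons near the dissection differed among the libraries as well, in chow 1 and in others. Striatal genes summed to 247, 1332, 566 and 926 CPM with HFD, against 3901, 421, 1741 and 2513 CPM with chow. Chow 1 was the highest library for 10 of the 12 striatal genes, and 12 of 12 diet folds were negative, with 0 called. Pallial excitatory neuron genes summed to 3192, 2366, 2136 and 1219 CPM with HFD, against 630, 2428, 506 and 384 CPM with chow, with 12 of 12 folds positive and 0 called. The direction of all folds on these lists was the same without chow 1, with medians of -1.01 for striatal and 0.84 for pallial genes. The list of central amygdala genes summed to 531, 1140, 687 and 918 CPM with HFD, against 1842, 623, 1275 and 1598 CPM with chow. The sum was highest in chow 1, but that library was the highest for only 5 of the 12 genes. Averaged over these genes, log2 CPM minus the mean of the 8 libraries was 0.96 in chow 8 and 0.63 in chow 1. Penk, the gene with the highest mean CPM on this list, is also on the striatal list. No striatal or pallial gene listed was at 0 in any library, and the part of these lists in the levels of the cilia members was not tested.

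**Figure D5:**
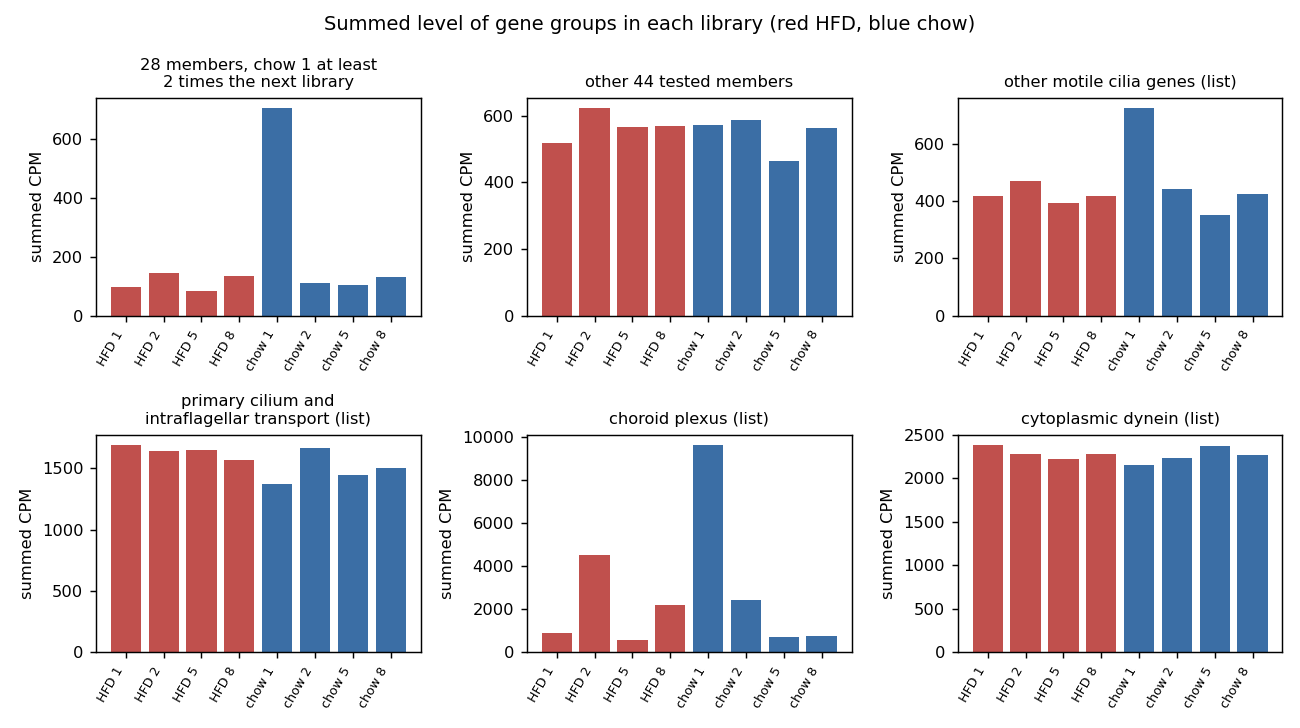
Bars give the summed CPM of 6 gene groups in each library, HFD in red left of chow in blue, on axes that start at 0. The 28 members reach 706 CPM in chow 1 and at most 145 CPM elsewhere, the choroid plexus list has 9641 CPM in chow 1 and 4547 CPM in HFD 2, and cytoplasmic dynein stays between 2157 and 2385 CPM.

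The share of promoter windows with the X-box arm was also set beside the levels in chow 1. The arm was in 30.4% of the 23 members with a window that were at least 2 times the next library in chow 1, and in 48.6% of the 37 other members with a window. Among genes outside the rule with the same chow 1 margin, 27.6% of 351 held it, beside 15.1% of the 12060 tested genes with a window. These shares are descriptions, with no test.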

How the data were processed

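Messenger RNA of central amygdala was sequenced, 4 libraries from mice on HFD and 4 from mice on chow. The authors deposited 1 table with an estimated count per gene and library, and 35.2% of the values were not whole within 1e-06. The submitters' processing notes name Bowtie2 2.2.5, RSEM 1.2.8 and mm10, without roles. Per the file headers, the same table holds means per diet of expected count, FPKM and TPM, made by the authors. Only the deposited TPM means are printed, with no SD, and the deposited FPKM was not used. Strand and annotation are not given in these sources, and reads of antisense partners cannot be separated. Of the 74 members found by symbol in the GENCODE M21 annotation, 14 share exon bases with another gene. For Cfap43 and Dnaaf3 the other gene is on the same strand.

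Counts were rounded, filtered with filterByExpr and scaled by TMM, with library totals of 17451111 to 19562368. The diet test was the two-sided quasi-likelihood test of edgeR 4.0.16 (R 4.3.3), without covariates, with Benjamini-Hochberg adjustment over 15186 genes and a threshold of 0.05. Folds are log2 HFD over chow, with SE the fold over the root of F. CPM values use TMM-scaled sizes, and log2 CPM a prior count of 2. The alternatives were DESeq2 1.42.0, limma-voom in limma 3.58.1, other scaling factors and filters, the title number as a block, an adjusted p under 0.1 and each library left out. Columns of per-sample values left unused numbered 0.

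The members and lists were chosen with earlier results of these data known. Genes named are those given by symbol in the rule, the 3 members with the highest mean CPM in each family, the 6 with the smallest p, Dynlrb1, and genes of other lists (highest CPM or smallest p) where a result turns on them. Others, among them Cfap52, Cfap221, Dnah6, Dnaaf1, Dnaaf3, Trp73 and Ccdc39, were named after their values were seen.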

Additional observations from a re-analysis of the deposited data

Results flagged for a closer look

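Within a diet, a library was set apart where its gap to the nearest other library, over the range of the 4 libraries, was above 0.829. Chance flags about 1 in 20 groups of values. Among the 72 tested members this held for 7 in HFD, or 9.72%, beside 5.98% of all tested genes. In chow it held for 21, or 29.2%, beside 14% of all tested genes.

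Chow 1 was the library set apart, as the highest of the chow libraries, for 16 of the 44 named genes. Its CPM was 121 for Foxj1, 19.1 for Dynlrb2, 45.7 for Rsph1, 10.2 for Tmem212, 25.2 for Rarres2 and 6.05 for Mia. It was 26.8 for Dnaaf5, 17.5 for Dnaic1, 26.8 for Tekt1, 122 for Drc7, 53.2 for Cfap126 and 24.6 for Cfap52. Outside the symbol rule it was 3.57 for Deup1, 8.28 for Dnajb13, 359 for Clic6 and 95.6 for Otx2. Summed CPM in chow 1 was likewise set apart at 216 for the named ependymal genes, 161 for the regulatory complex, 71.6 for the tektins and 39.2 for the intermediate chains.

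Chow 1 was set apart as the lowest chow library for Cfap36, at 51.9 CPM, and Cfap97, at 20.2 CPM. Other libraries were set apart less often among the named values. HFD 5 was the highest HFD library for Dnaaf2 at 43.3 CPM, and HFD 1 the lowest for Cfap36 at 71.8 CPM. Chow 5 was the lowest chow library for the summed heavy chains at 50.1 CPM. Chow 2 was the highest chow library for the summed pallial excitatory neuron list at 2428 CPM. No cause of these values was tested.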

How the results depend on the processing

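With each library left out in turn, edgeR called 0 to 116 of all tested genes, the 116 without chow 2 (92 higher, 0.601%, and 24 lower, 0.157%), and 0 members each time, with a smallest adjusted p of a member of 0.152. The median log2 fold of the members then ran from -0.41 (without chow 5) to 0.07 (without chow 1), and was -0.15 to -0.32 under the other scalings, filters and tools. An adjusted p under 0.1 called 0 genes. Of 654 log2 folds of 44 named genes under an alternative, 617 kept direction and side of the threshold, 37 turned direction, 21 of them without chow 1, and none gained or lost a call. With a library left out, those that turned ran from -1.69 to 0.41 for Rsph1, -1.55 to 0.016 for Ccdc153, -1.65 to 0.13 for Tmem212, -1.16 to 0.67 for Mia, -1.08 to 0.14 for Ak7, -0.64 to 0.073 for Rsph4a, -0.022 to 0.34 for Dnah1, -0.39 to 0.16 for Dnah7b and -0.23 to 0.080 for Dnaaf4. They ran from -0.054 to 0.16 for Rsph3b, -0.022 to 0.24 for Rsph3a, -0.087 to 0.28 for Rsph9, -1.46 to 0.56 for Tekt1, -1.23 to 0.16 for Tekt4, -0.016 to 0.22 for Cfap36, -0.12 to 0.087 for Cfap20, -0.088 to 0.20 for Cfap97 and -2.72 to 0.40 for Drc7. They ran from -0.021 to 0.30 for Drc1, -0.48 to 0.18 for Drc3, -2.48 to 0.024 for Cfap126, -0.97 to 0.081 for Trp73, -0.093 to 0.46 for Ccdc39, -1.65 to 1.12 for Ttr, -2.83 to 0.37 for Clic6, -2.60 to 0.24 for Otx2 and -1.55 to 0.79 for Kl. Upper-quartile scaling gave -0.0045 for Rsph3b, and limma-voom gave 0.31 for Ttr, 0.14 for Kl and 0.016 for Dnah7b; the cause was not tested.

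Libraries that share a title number deviated from their diet means with correlations of 0.01, -0.04, 0.04 and 0.39 for numbers 1, 2, 5 and 8, so the numbers were not taken as pairing. With the number as a replicate block edgeR called 0 genes, 1 member had an unadjusted p under 0.05, on the higher side, the median log2 fold of the members was -0.16, and Ttr and Kl turned to 0.73 and 0.36.

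Members near 1 CPM, such as Dnaaf1 and Cfap299, rest on few reads, and 7 members were too low to test. Chow 1 widened the errors of some members. The SE of the log2 fold was 0.73 for Foxj1 and 1.26 for Drc7 with 8 libraries, and 0.41 and 0.81 without chow 1. In others it did not, as for Dnah9, with an SE of 0.44 with 8 libraries and 0.49 without chow 1.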
